A study of Mus musculus with 12 samples.

Results

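BCR-negative B lymphoma cells grown with the GSK3 inhibitor CHIR99021 were compared with BCR-positive cells of the same lymphomas grown without it. The 3 arrays of treated BCR-negative cells and the 3 of untreated BCR-positive cells were chosen by their titles and paired by the lymphoma number, 6 of the 12 arrays of the study. All cells came from primary in vitro cultures of lymphomas of λ-MYC;B1-8f mice (written l-MYC;B1-8f in the labels), strain C57BL/6J x BALB/c, whose ages are not in the labels. The transgene drives MYC in B cells, and B1-8f is a preformed heavy chain variable exon flanked by loxP sites. Every culture, and so every group, received TAT-Cre, a cell-permeable recombinase protein. BCR-positive and BCR-negative cells of lymphomas 2564, 2646 and 2676 then grew together for 4 days, with or without CHIR99021 at a dose not stated in the labels, and were parted by flow sorting. The treated BCR-negative and the untreated BCR-positive cells therefore differed in the receptor, in the inhibitor and in the culture they came from. The other 6 arrays, of untreated BCR-negative and treated BCR-positive cells, served to show where a gene stood before rescue and what the inhibitor did in cells that kept the receptor. Each lymphoma gave 1 array per group.

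The B-cell receptor (BCR) is a membrane antibody coupled to the CD79A and CD79B signalling chains. Its tonic signal runs through the kinase SYK and PI3K to AKT, which holds FOXO transcription factors out of the nucleus and inactivates the kinase GSK3. Active GSK3 phosphorylates MYC, cyclin E and β-catenin, among others, and marks them for degradation. CHIR99021 blocks the kinase directly, and the comparison asked which genes it brought back to the level of BCR-positive cells and which stayed apart.

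Few genes separated rescued BCR-negative cells from untreated BCR-positive cells. At an adjusted p under 0.05 limma called 3 of 18820 genes lower (Ighv1-72, Frat1 and Hivep2) and 0 higher, 0.0159% of the genes tested. At an unadjusted p under 0.05 there were 882 higher (4.69%) and 762 lower (4.05%), and 13 genes had an adjusted p under 0.1. Without inhibitor the same test called 359 genes higher and 432 lower in BCR-negative cells (4.2%), and 3861 had an unadjusted p under 0.05. The median absolute log2 change over all genes was 0.0582 after rescue and 0.0757 before it, with a standard error (SE) of 0.0724 at the median gene in both. Changes over 1 on the log2 scale numbered 23 after rescue and 64 before it. Both comparisons share the untreated BCR-positive arrays. The direct test of whether the inhibitor moved a gene in BCR-negative cells called 692 genes (3.68%). In BCR-positive cells it called 14 (0.0744%), and between BCR-negative and BCR-positive cells of treated cultures it called 3 (0.0159%). The 3 calls after rescue rest on the lymphoma pairing: with no lymphoma block 0 genes were called in limma, and 404 had an unadjusted p under 0.05. The 791 BCR-loss calls became 5 without that block. They became 0 with only the 6 arrays compared, and 0 without lymphoma 2646.

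The cells had the markers of the B line. Of 10 B-cell markers 9 were measured, and 8 lay above the median gene on every array. The exception was Ms4a1, which encodes CD20, at 3.03 to 3.92 (log2 expression, the scale of all levels here) on the 12 arrays. No NK-cell, neutrophil or erythroid marker lay above the median gene on all arrays of a group. Of the T-cell markers 1 or 2 of 9 did, of the macrophage and dendritic markers 1 or 2 of 12, and of the stromal and endothelial markers 3 to 5 of 9. No marker of these 6 other lineages was called in the rescued comparison.

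Ighv1-72, the V gene behind the B1-8 antibody and the target of TAT-Cre, fell most of all genes in rescued cells. The untreated BCR-positive arrays read 10.26, 10.51 and 10.38 in lymphomas 2564, 2646 and 2676. In the same order the treated BCR-negative arrays read 7.26, 8.17 and 6.56. The groups did not overlap, and the change was -3.05 ± 0.331 (SE, n = 3 pairs; limma, adjusted p = 0.0400), which leaves 12% of the BCR-positive signal. By lymphoma it was -3.00, -2.34 and -3.82. It was the one gene that limma called with the same sign both before rescue (-2.11 ± 0.331) and after it. The level in untreated BCR-negative cells was 8.60, 9.12 and 7.10, above that of treated BCR-negative cells in each lymphoma, but the CHIR99021 change in BCR-negative cells did not pass (-0.95; limma, adjusted p = 0.149). Many V genes resemble Ighv1-72 closely, so its value may include their signal and is uncertain to that extent.

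Cre does not remove the other receptor genes, so their levels do not measure the deletion directly. Ighm, the μ constant region, read 4.38, 7.60 and 4.27 in untreated BCR-positive and 4.24, 5.16 and 4.31 in treated BCR-negative cells. Its mean change of -0.85 came from lymphoma 2646 (-2.44), against -0.15 in 2564 and 0.03 in 2676 (limma, adjusted p = 0.705). In 2564 and 2676 the BCR-positive readings lay below the median gene of 5.07, so a fall could hardly show there. The dimmer Ighm probe set stood at -0.33. The κ constant region Igkc (-0.01 ± 0.267) and the signalling chain gene Cd79a (-0.03 ± 0.0773) did not pass. Cd79b read 11.51, 11.67 and 11.55 in untreated BCR-positive and 11.03, 11.40 and 11.34 in rescued cells. These groups did not overlap, but the change of -0.32 ± 0.0604 did not pass (limma, adjusted p = 0.145). The inhibitor lowered Cd79b in BCR-negative cells (-0.33; limma, adjusted p = 0.0240), and the change before rescue was 0.01. The receptor kinase gene Syk stood at -0.16 ± 0.0688 (limma, adjusted p = 0.530).

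Frat1 encodes a protein that binds GSK3 and keeps it from β-catenin. It read 8.72, 7.11 and 8.15 in untreated BCR-positive cells and 7.91, 6.21 and 6.90 in rescued cells of 2564, 2646 and 2676. The lymphomas differed so much that the group ranges overlapped, while each pair went down, with differences of -0.81, -0.90 and -1.25. The change was -0.99 ± 0.0991 (limma, adjusted p = 0.0400), or 50.5% of the BCR-positive level. BCR loss alone had not moved Frat1 past the test (-0.07; 8.70, 7.24 and 7.82 in untreated BCR-negative cells). CHIR99021 lowered it in BCR-negative cells (-0.91; limma, adjusted p = 0.00404) and in BCR-positive cells (-0.79; limma, adjusted p = 0.0387). The related gene Frat2 read 7.01, 6.20 and 6.83 against 6.45, 5.98 and 6.17 after rescue, lower in each lymphoma, without passing (-0.48 ± 0.111; limma, adjusted p = 0.209).

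Hivep2 encodes a large zinc finger protein that binds NF-κB-like sites. Its levels were 8.26, 8.30 and 8.94 in untreated BCR-positive cells and 7.59, 7.35 and 7.93 in rescued cells, with no overlap. The change was -0.88 ± 0.1005 (limma, adjusted p = 0.0432), or 54.4% of the BCR-positive level. Untreated BCR-negative cells (8.15, 7.80 and 8.73) and treated BCR-positive cells (7.73, 7.88 and 8.33) lay between these groups in each lymphoma. CHIR99021 lowered Hivep2 in BCR-negative cells (-0.60; limma, adjusted p = 0.0168), while BCR loss (-0.27; adjusted p = 0.153) and CHIR99021 in BCR-positive cells (-0.52; adjusted p = 0.105) did not pass in limma.

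**Figure D1:**
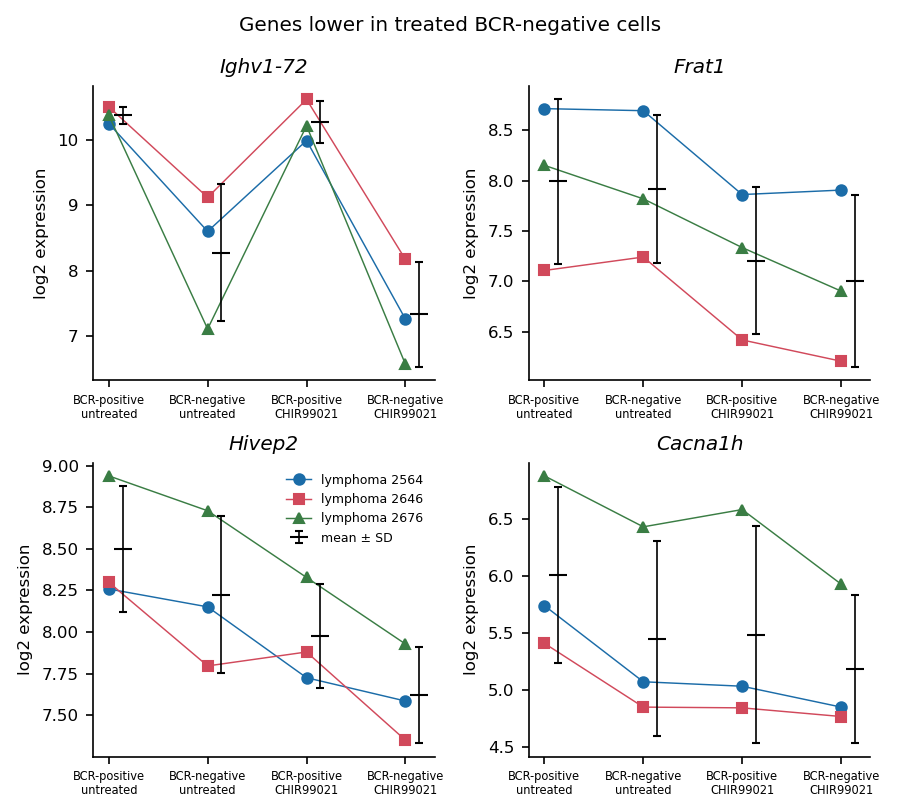
Log2 expression (y axis, a separate scale per panel) of Ighv1-72, Frat1, Hivep2 and Cacna1h in the 4 groups. Coloured points joined by lines are the arrays of 1 lymphoma and black bars the mean ± SD of 3; in each panel every lymphoma is lower in treated BCR-negative than in untreated BCR-positive cells, and the gap is widest for Ighv1-72, at -3.05.

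The promoter windows of these genes, called both after rescue and for CHIR99021 in BCR-negative cells, are shown for reference, and no result rests on them. They are 300 bases long, mostly upstream of the RefSeq start (GRCm38.p6), 5′ to 3′ on the gene's strand. Capitals mark the match to a FOXO motif (GTAAACA, either strand) in Frat1 and to the NF-κB consensus in Hivep2. Of 32851 windows of this length in the table, 1199 (3.65%) hold the FOXO letters and 2779 (8.46%) the NF-κB consensus on either strand. Frat1 lies at chr19:41829720-41830019 on the plus strand and Hivep2 at chr10:13966129-13966428 on the plus strand.
Frat1: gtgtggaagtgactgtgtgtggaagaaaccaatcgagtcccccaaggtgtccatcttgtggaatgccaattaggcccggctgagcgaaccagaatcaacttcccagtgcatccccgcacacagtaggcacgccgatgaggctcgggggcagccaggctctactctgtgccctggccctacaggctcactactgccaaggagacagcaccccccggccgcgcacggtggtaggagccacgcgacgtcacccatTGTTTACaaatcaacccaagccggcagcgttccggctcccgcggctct
Hivep2: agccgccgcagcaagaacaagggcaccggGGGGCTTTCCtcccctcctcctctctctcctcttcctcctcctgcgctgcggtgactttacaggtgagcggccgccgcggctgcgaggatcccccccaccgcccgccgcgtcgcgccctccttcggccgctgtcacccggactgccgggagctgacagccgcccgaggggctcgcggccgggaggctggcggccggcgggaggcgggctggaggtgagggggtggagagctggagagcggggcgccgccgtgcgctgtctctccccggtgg
The Frat1 match is the reverse complement, TGTTTAC, and begins 3 bases into the transcript, counting the start as 1. The Hivep2 match begins at position -221 from the start. A match of letters is a description of the sequence.

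Just outside the threshold was Cacna1h, a T-type calcium channel subunit, at 5.74, 5.41 and 6.88 in untreated BCR-positive and 4.85, 4.77 and 5.93 in rescued cells (-0.83 ± 0.0998; limma, adjusted p = 0.0503). Unlike Frat1 it had already fallen with BCR loss (-0.56; limma, adjusted p = 0.0241). Atg101, which encodes a subunit of the autophagy-initiating ULK1 complex, came next among the named falls, at -0.43 ± 0.0629 (limma, adjusted p = 0.0916). It fell with CHIR99021 in BCR-negative cells (-0.61; limma, adjusted p = 0.00404), from 7.93, 8.72 and 7.93 to 7.39, 8.01 and 7.33. Untreated BCR-positive cells read 7.78, 8.43 and 7.80, above the rescued cells of every lymphoma.

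No gene was called higher in rescued cells, and the rises with the smallest p were small. Ldlrad3, which encodes an LDL receptor-like protein, read 8.47, 8.49 and 8.59 in untreated BCR-positive and 8.79, 9.04 and 9.02 in rescued cells, with no overlap (0.43 ± 0.0597; limma, adjusted p = 0.0916). It had risen with BCR loss (0.53; limma, adjusted p = 0.00541), and the inhibitor moved it by -0.10 (limma, adjusted p = 0.412). The same held for Aph1b, a γ-secretase subunit gene, with 0.49 before rescue and 0.58 ± 0.0811 after it, and for Klf10, a TGF-β-inducible repressor gene, with 0.40 and 0.39 ± 0.0616. Aph1b and Klf10 were called before rescue (limma, adjusted p = 0.0201 and 0.0171) and not after it (0.0916 and 0.113), with CHIR99021 changes in BCR-negative cells of 0.08 and -0.01. The small nucleolar RNA Snora61 stood at 0.59 before and 0.66 ± 0.0927 after rescue (limma, adjusted p = 0.0176 and 0.0916). Pgap1, which remodels GPI anchors, was at 0.30 before and 0.57 ± 0.0783 after rescue (limma, adjusted p = 0.0591 and 0.0916). CHIR99021 in BCR-positive cells moved Snora61, Aph1b, Pgap1 and Ldlrad3 by 0.50, 0.35, 0.30 and 0.15, without passing. Between BCR-negative and BCR-positive cells of treated cultures they differed by 0.16, 0.22, 0.27 and 0.28, also without passing.

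Of the genes that BCR loss raised and CHIR99021 lowered in BCR-negative cells, the 10 with the largest rise were looked at. They ended nearer to their level in untreated BCR-positive cells, and some stayed apart from it. These 10 were Cacna1e, Tnfaip3, Pinlyp, Cd69, Maml2, Nfkbie, Mturn, Lima1, Gm4759 and Bmf, 1.41 to 2.15 above untreated BCR-positive cells before rescue. After rescue they lay between -0.32 (Mturn) and 0.65 (Maml2), with adjusted p of 0.304 to 0.987 in limma. The 95% interval of the rescued change held 0 in 5 of the 10 and lay clear of the mean BCR-loss change in all 10. These genes were chosen because limma called both the BCR-loss and the CHIR99021 change. That the intervals lay clear follows from this choice, and the move back is a description. CHIR99021 in BCR-positive cells was called for 1 of the 10, Mturn. All 10 changes there were negative, from -1.16 (Mturn) to -0.14. A difference in the CHIR99021 change between BCR-negative cells and cells with the receptor was called for 0 of the 10 (interaction in limma, adjusted p = 0.276 to 0.984).

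Tnfaip3 encodes A20, a deubiquitinase that restrains NF-κB signalling. It read 4.76, 6.23 and 4.85 in untreated BCR-positive cells, 6.38, 8.68 and 7.03 in untreated BCR-negative cells and 4.90, 6.36 and 5.65 after rescue. The rescued level was 0.13 above the BCR-positive one in 2646 and 0.80 above it in 2676, the lymphoma farthest from return. The rescued change was 0.36 ± 0.180 (95% interval -0.04 to 0.76; limma, adjusted p = 0.628) after a BCR-loss change of 2.09.

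Nfkbie encodes the inhibitor IκBε. Its levels were 6.11, 6.63 and 6.24 in untreated BCR-positive, 7.24, 8.28 and 7.94 in untreated BCR-negative and 6.26, 6.88 and 6.59 in rescued cells. All lymphomas stayed slightly above their BCR-positive level, by 0.15, 0.26 and 0.35. The interval of 0.01 to 0.49 did not hold 0, though the change did not pass over all genes (limma, adjusted p = 0.538). Both NF-κB target promoters hold matches to the NF-κB consensus (capitals, same windows and background as above), at chr10:19015361-19015660 on the minus strand for Tnfaip3 and chr17:45555450-45555749 on the plus strand for Nfkbie.
Tnfaip3: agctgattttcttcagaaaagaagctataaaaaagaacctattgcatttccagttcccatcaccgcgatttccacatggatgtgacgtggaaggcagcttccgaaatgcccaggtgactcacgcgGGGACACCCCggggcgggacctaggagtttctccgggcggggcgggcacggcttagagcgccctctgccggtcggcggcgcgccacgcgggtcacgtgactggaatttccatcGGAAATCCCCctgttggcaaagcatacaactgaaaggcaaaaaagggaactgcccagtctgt
Nfkbie: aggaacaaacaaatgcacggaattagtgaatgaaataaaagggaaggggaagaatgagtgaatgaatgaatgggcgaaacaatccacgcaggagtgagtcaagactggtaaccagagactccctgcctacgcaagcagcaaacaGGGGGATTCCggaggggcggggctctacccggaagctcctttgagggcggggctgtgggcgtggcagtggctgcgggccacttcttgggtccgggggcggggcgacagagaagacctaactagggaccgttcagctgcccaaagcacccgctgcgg
Tnfaip3 has matches beginning at positions -125 and -12 from the start, and Nfkbie has 1 beginning at -106. A further Tnfaip3 window in the table, at chr10:19011914-19012213, has 0 matches.

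Cacna1e, a voltage-gated calcium channel subunit gene, was the largest BCR-loss rise of the 10. It read 5.01, 4.85 and 5.28 in untreated BCR-positive, 7.48, 7.26 and 6.85 in untreated BCR-negative and 5.39, 5.63 and 5.84 in rescued cells. The rescued arrays lay above all BCR-positive ones, at 0.57 ± 0.180 (95% interval 0.17 to 0.97; limma, adjusted p = 0.363). Maml2, a Notch coactivator gene, likewise stood at 0.65 ± 0.181 (0.24 to 1.05; limma, adjusted p = 0.304), with 0.42, 0.68 and 0.84 by lymphoma. That is its brightest probe set (mean level 6.58), and the other Maml2 probe set, at 6.23, stood at only 0.17. Mturn, a regulator of neuronal differentiation, ended below the BCR-positive level in every lymphoma, at -0.45, -0.25 and -0.27 (95% interval -0.54 to -0.10; limma, adjusted p = 0.350). The activation marker Cd69 (-0.07 ± 0.398) and the death gene Bmf (0.10 ± 0.215) had means near 0 with wide errors. Cd69 was at 0.76 in 2564 and -0.73 in 2646, so its lymphomas disagreed in direction.

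The FOXO target Pik3ip1, which encodes a PI3K inhibitor, was looked at in every comparison. Its levels were 6.29, 6.07 and 6.66 in untreated BCR-positive, 7.40, 7.44 and 8.10 in untreated BCR-negative and 6.00, 6.35 and 7.08 in rescued cells. The difference from BCR-positive cells was 1.30 before rescue and 0.14 ± 0.128 after it (95% interval -0.15 to 0.42; limma, adjusted p = 0.855), and the CHIR99021 change in BCR-negative cells was called (-1.17; limma, adjusted p = 0.00404).

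**Figure D2:**
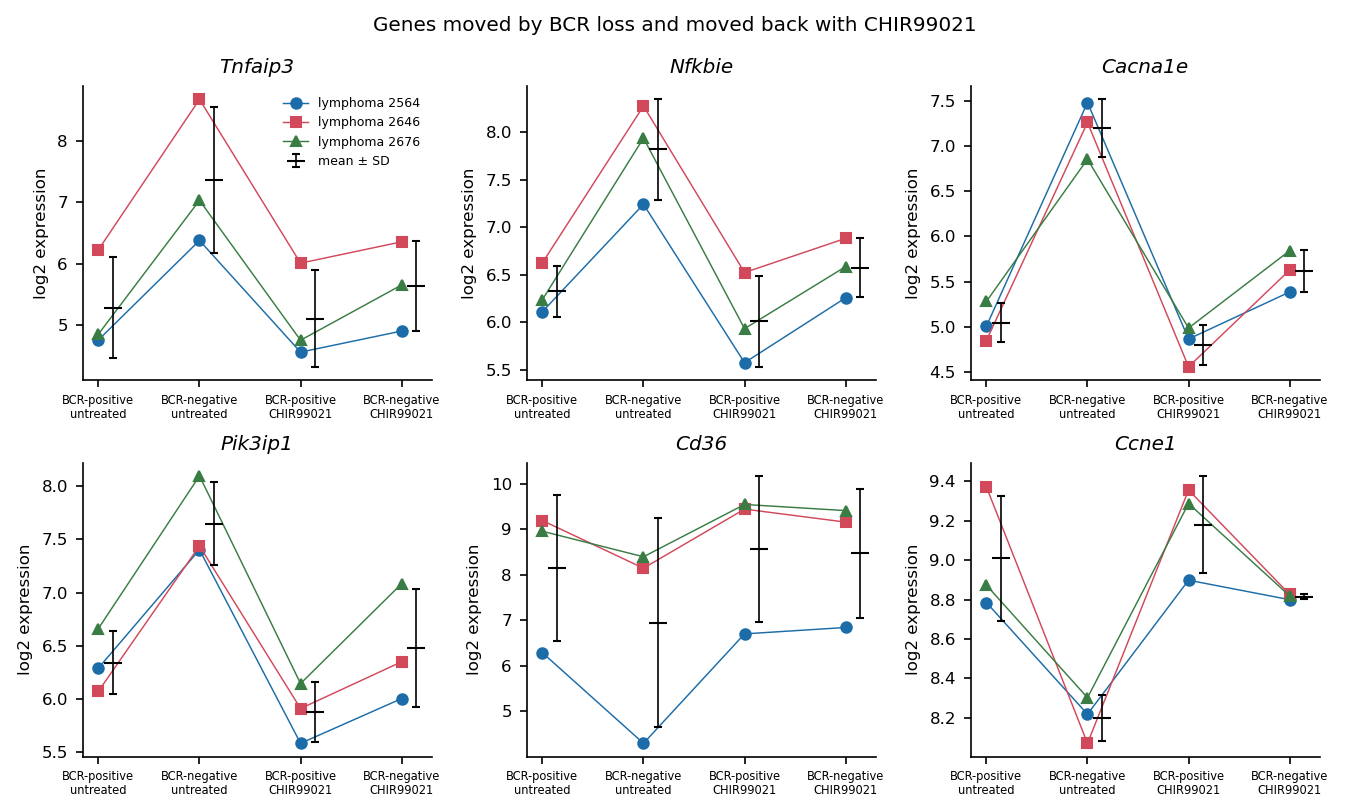
Log2 expression (y axis, a separate scale per panel) of Tnfaip3, Nfkbie, Cacna1e, Pik3ip1, Cd36 and Ccne1 in the 4 groups, with 1 coloured line per lymphoma and the mean ± SD of 3 in black. In each lymphoma the untreated BCR-negative array is the farthest to one side; the treated one still differs from the untreated BCR-positive array by 0.80 for Tnfaip3 in 2676, -0.54 for Ccne1 in 2646 and 0.45 for Cd36 in 2676.

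The mirror set was lowered by BCR loss and raised by CHIR99021 in BCR-negative cells, and its 10 largest falls also ended near the BCR-positive level. They were Cd36, Ccne1, Sgk3, Fancb, Kbtbd8, Orc1, Tsr3, Alg6, Ddias and Gemin6, from -1.20 to -0.68 before rescue. After it they ranged from -0.25 (Sgk3) to 0.32 (Cd36), with adjusted p of 0.413 to 0.991 in limma. The interval held 0 in 9 of 10, all but Sgk3. It lay clear of the mean BCR-loss change in all 10, which follows from choosing genes called for CHIR99021 in BCR-negative cells. None was called for CHIR99021 in BCR-positive cells (0 of 10, -0.06 to 0.42), and the interaction had an adjusted p of 0.928 for each in limma. Over both sets the interval held 0 for 14 of 20 genes.

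Cd36, a fatty acid transporter gene, read 6.29, 9.19 and 8.96 in untreated BCR-positive, 4.30, 8.15 and 8.40 in untreated BCR-negative and 6.84, 9.16 and 9.41 in rescued cells. The rescued level was above the BCR-positive one in 2564 (0.55) and 2676 (0.45) and close to it in 2646 (-0.03; mean 0.32 ± 0.263; limma, adjusted p = 0.829). Ccne1 encodes cyclin E, which drives entry into S phase and is itself a GSK3 substrate as a protein. Its levels were 8.78, 9.37 and 8.87, then 8.22, 8.07 and 8.30 after BCR loss, and 8.80, 8.83 and 8.82 after rescue. Lymphomas 2564 (0.01) and 2676 (-0.05) were close to their BCR-positive level, while 2646 was not (-0.54; mean -0.19 ± 0.136; limma, adjusted p = 0.788).

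Among the others Orc1, a subunit of the origin recognition complex, went from 7.40, 6.11 and 6.73 in untreated BCR-negative to 7.77, 7.10 and 7.30 in rescued cells, against 7.86, 7.15 and 7.36 in BCR-positive cells (-0.06 ± 0.135). Fancb, of the Fanconi anaemia DNA repair pathway, stood at 0.05 ± 0.122 and the DNA damage response gene Ddias at -0.02 ± 0.126. Alg6 (a glucosyltransferase of N-glycan assembly, -0.01 ± 0.0975) and Gemin6 (of the SMN complex, 0.07 ± 0.116) were also close to 0. The kinase gene Sgk3, a relative of AKT, read 7.33, 7.94 and 7.81 against 7.09, 7.62 and 7.63 after rescue, lower in every lymphoma (-0.25 ± 0.0860; 95% interval -0.44 to -0.06; limma, adjusted p = 0.413).

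**Figure D3:**
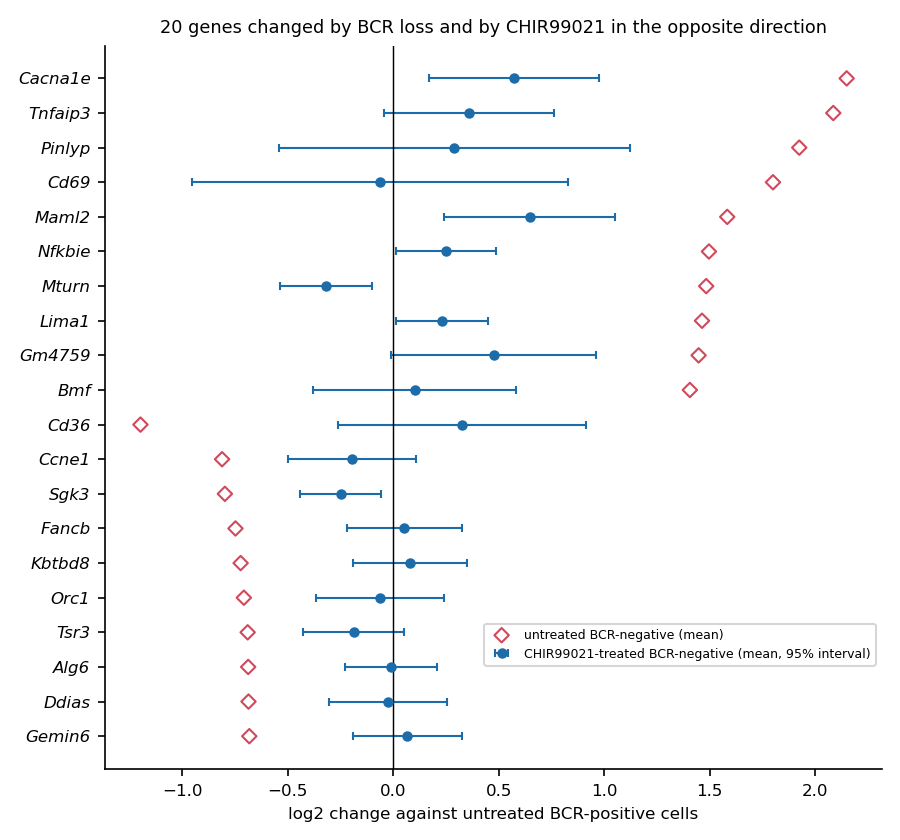
Log2 change against untreated BCR-positive cells (x axis) of the 20 genes that limma called for BCR loss and, with the opposite sign, for CHIR99021 in BCR-negative cells. Open diamonds are untreated BCR-negative means and blue points treated BCR-negative means with their 95% interval (n = 3 lymphomas); the intervals of 14 of 20 genes hold 0.

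Of 27 gene lists, 1 had a called member in the rescued comparison, the list of GSK3 and the β-catenin destruction complex with Frat1 (1 of 12). The median over all genes was 0.01 after rescue. Of 30 FOXO targets, 8 rose and 0 fell with BCR loss (background 1.91% higher and 2.3% lower), with a list median of 0.48. With CHIR99021 in BCR-negative cells 9 fell and 0 rose (background 1.76% lower and 1.91% higher), and the rescued median was 0.01 (-0.11, 0.04 and 0.11 by lymphoma) with 17 members positive and 13 negative. CHIR99021 in BCR-positive cells gave a median of -0.22, with 6 members positive and 24 negative. Within treated cultures BCR-negative cells still lay above BCR-positive cells, at a median of 0.32 with 28 positive and 2 negative. The rescued median near 0 holds both shifts, and neither was tested as a list. Klf6, a transcription factor gene, stood at 0.47 ± 0.277 and the insulin receptor adaptor Irs2 at 0.34 ± 0.169 after 1.38 and 1.09 before.

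Some FOXO targets ended below the BCR-positive level. Pdcd4, a translation inhibitor gene, read 10.42, 9.39 and 10.05 in untreated BCR-positive and 9.55, 8.79 and 9.38 in rescued cells, lower in each lymphoma (-0.71 ± 0.166; limma, adjusted p = 0.210). The ubiquitin ligase gene Fbxo32 read 5.66, 5.31 and 5.24 against 5.18, 5.13 and 5.04, with no overlap (-0.29 ± 0.0831; limma, adjusted p = 0.309). CHIR99021 lowered both in BCR-negative cells (Pdcd4 -1.28 and Fbxo32 -0.97; limma, adjusted p = 0.00802 and 0.00188). In BCR-positive cells Fbxo32 fell (-0.65) and Pdcd4 did not pass (-1.13; limma, adjusted p = 0.0539).

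Of 22 NF-κB targets 9 rose with BCR loss (1.91% of all genes did) and 7 fell with CHIR99021 in BCR-negative cells (1.76% of all genes did), and 0 moved in the other direction in either. After rescue 0 of 22 passed, and the median was 0.14 against 0.23 before. By lymphoma the rescued median was 0.08, 0.08 and 0.05. Nfkbia, which encodes the inhibitor IκBα, stood at 0.21 ± 0.179 (1.11 before) and Nfkb2 at 0.19 ± 0.139 (0.91 before). The kinase gene Pim1 had risen with BCR loss (1.09) and was below the BCR-positive level in every lymphoma after rescue, at 7.47, 8.31 and 8.76 against 8.09, 9.04 and 9.14 (-0.57 ± 0.16; limma, adjusted p = 0.303). The chemokine gene Ccl3 went the other way (0.63 ± 0.166; limma, adjusted p = 0.267), at 4.94, 3.78 and 4.15 against 3.77, 3.75 and 3.45, which are dim signals.

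Of 31 early-response genes, which receptor signals induce within minutes, 8 rose with BCR loss (1.91% of all genes) and 5 fell with CHIR99021 in BCR-negative cells (1.76% of all genes). The list median was 0.70 before rescue and 0.05 after it (0.09, -0.14 and 0.16 by lymphoma), and 0 of 31 passed after it. CHIR99021 in BCR-positive cells gave a median of -0.15, with 6 members positive and 25 negative. BCR-negative against BCR-positive cells of treated cultures gave 0.13, with 26 positive and 5 negative. Egr1 stood at -0.23 ± 0.208 after 1.04 before, Fos at 0.36 ± 0.315 after 1.22, and the phosphatase gene Dusp6 at 0.30 ± 0.277 after 1.34. Ier3 read 4.72, 5.02 and 4.62 in untreated BCR-positive and 5.42, 5.63 and 4.86 in rescued cells, higher in each lymphoma (0.51 ± 0.104; limma, adjusted p = 0.150). Dusp2 was lower in each, at 7.53, 7.88 and 7.80 against 7.12, 7.39 and 7.42 (-0.42 ± 0.153; limma, adjusted p = 0.445). The stress gene Atf3 had a wide spread, at 2.39, -0.14 and 1.78 above the BCR-positive level (1.34 ± 0.550; limma, adjusted p = 0.515).

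DNA replication genes were nearer to the BCR-positive level after rescue than before it, but mostly below it. Of 30 measured, 11 fell with BCR loss (2.3% of all genes) and 3 rose with CHIR99021 in BCR-negative cells (Gins3, Orc1 and Ccne1; 1.91% of all genes), and 0 of 30 passed after rescue. The rescued median was -0.14 against -0.32 before, with -0.10, -0.17 and -0.11 by lymphoma. It was -0.08 without the untreated BCR-positive array of 2646. Negative changes were seen in 28 of 30, and 7 had an unadjusted p under 0.05 (4.05% of all genes were lower by that measure). CHIR99021 in BCR-positive cells gave a median of -0.08, with 6 members positive and 24 negative, and 7 lower at an unadjusted p under 0.05. Between BCR-negative and BCR-positive cells of treated cultures the median was -0.05, with 9 positive and 21 negative, and 1 lower by that measure. The deficit after rescue was thus partly shared by treated BCR-positive cells, and these list shifts were not tested. Mcm3, a subunit of the replicative helicase, read 10.13, 10.06 and 10.06 in untreated BCR-positive and 9.86, 9.86 and 9.77 in rescued cells, with no overlap (-0.25 ± 0.0773; limma, adjusted p = 0.350). Mcm7, of the same complex, read 10.90, 10.96 and 11.04 against 10.68, 10.76 and 10.78, also apart (-0.23 ± 0.0694; limma, adjusted p = 0.351). For these subunits the CHIR99021 change in BCR-negative cells was 0.05 and -0.03.

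Lists of growth and metabolism differed between lymphomas. The median of 39 nucleolar and growth targets of MYC was -0.05 after rescue and -0.26 before, with 1 member higher and 0 lower at an unadjusted p under 0.05. Oxidative phosphorylation (33 genes) went from -0.19 to -0.02, nucleotide synthesis (22) from -0.31 to -0.06 and cholesterol synthesis (20) from -0.27 to -0.07. By lymphoma (2564, 2646 and 2676) the rescued medians were 0.05, -0.02 and -0.14 for oxidative phosphorylation, 0.09, -0.02 and -0.16 for nucleotide synthesis and 0.07, -0.16 and -0.18 for cholesterol synthesis. In 2676 the medians before rescue were -0.16, -0.35 and -0.15, so oxidative phosphorylation was little changed there and cholesterol synthesis was no nearer to 0. For the MYC targets the lymphomas stood at 0.06, -0.09 and -0.09. BCR loss had lowered 3, 3, 3 and 1 members of these lists in limma (2.3% of all genes) and raised 1, the nucleotide synthesis gene Ctps2, and 0 passed after rescue. Within them Ndufv1, a complex I subunit gene, read 9.86, 9.49 and 9.42 in untreated BCR-positive and 9.79, 9.31 and 8.95 in rescued cells (-0.24 ± 0.0859; limma, adjusted p = 0.436), after a fall with BCR loss (-0.37; adjusted p = 0.0444). Ndufb3, of the same complex, was lower with no overlap, at 7.01, 7.09 and 6.95 against 6.81, 6.82 and 6.87 (-0.18 ± 0.0605; limma, adjusted p = 0.390). Of the ribosome biogenesis genes Bysl stood at -0.22 ± 0.109, with 0.03, -0.13 and -0.55 by lymphoma, and the RNA polymerase I and III subunit gene Polr1c at 0.13 ± 0.0575. The purine enzyme gene Impdh1 read 8.08, 7.71 and 7.42 against 8.27, 8.06 and 7.60 in rescued cells (0.24 ± 0.0701; limma, adjusted p = 0.327). The median of mitosis genes was -0.05 after and -0.14 before. The mouse Myc gene, which is not the transgene, was dim at 3.98 to 4.47 on all arrays (-0.13 ± 0.0551; limma, adjusted p = 0.515).

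**Figure D4:**
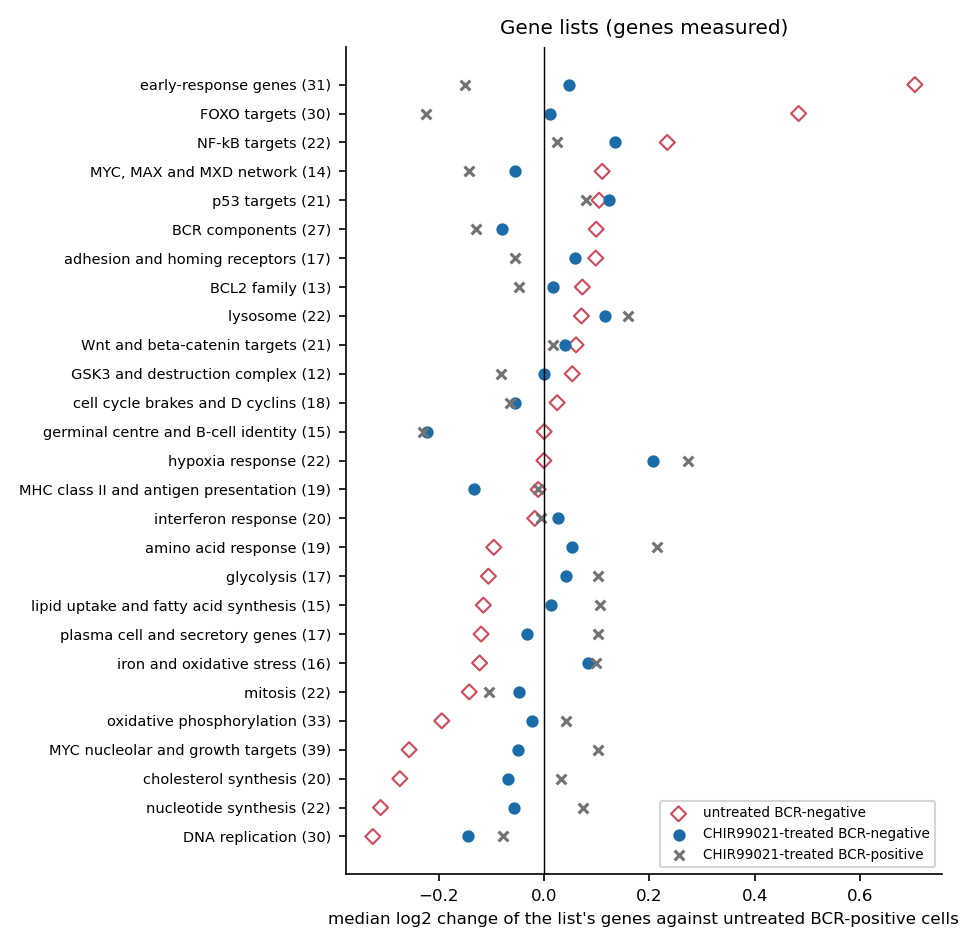
Median log2 change against untreated BCR-positive cells (x axis) of 27 gene lists, with the number of genes measured in brackets. Open diamonds are untreated BCR-negative, blue points treated BCR-negative and grey crosses treated BCR-positive cells; early-response and FOXO lists move from 0.70 and 0.48 to 0.05 and 0.01, while hypoxia and B-cell identity lists lie near the treated BCR-positive cells.

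None of the 22 hypoxia genes passed after rescue. The list median was -0.00 with BCR loss and 0.21 after rescue (0.25, 0.27 and 0.13 by lymphoma), and 0.27 in treated BCR-positive cells. After rescue 10 of 22 were higher at an unadjusted p under 0.05 and 0 lower (4.69% and 4.05% of all genes), and neither the list nor its shift from before rescue was tested. Adm, which encodes adrenomedullin, read 6.94, 6.31 and 4.80 in untreated BCR-positive and 8.64, 7.02 and 5.14 in rescued cells (0.92 ± 0.333; limma, adjusted p = 0.451). The prolyl hydroxylase gene Egln3 (0.88 ± 0.324) owed most of its mean to lymphoma 2564 (2.0, against 0.35 and 0.28). Vegfa, the angiogenic growth factor gene, stood at 0.46, 0.16 and 0.44 (0.35 ± 0.0763; limma, adjusted p = 0.180) and the oxidoreductase gene Ero1a at 0.47, 0.48 and 0.06 (0.34 ± 0.0810; limma, adjusted p = 0.227). CHIR99021 raised Ero1a in BCR-negative cells (0.44; limma, adjusted p = 0.0234), and its change in BCR-positive cells was 0.41 (adjusted p = 0.105). Ero1a was among 3 of 22 members that limma called higher with CHIR99021 in BCR-negative cells (1.91% of all genes were).

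Genes of germinal centre and B-cell identity lay on the low side after rescue. All 15 measured were negative, 3 at an unadjusted p under 0.05 (4.05% of all genes were lower by that measure), and 0 passed over all genes. The median was -0.22, against 0.00 before rescue and -0.23 in treated BCR-positive cells. By lymphoma it was -0.36 in 2564, -0.12 in 2646 and -0.08 in 2676. Spib, an ETS factor gene of the B line, read 10.07, 10.19 and 9.99 in untreated BCR-positive and 8.70, 9.94 and 10.04 in rescued cells (-0.52 ± 0.216; limma, adjusted p = 0.526). Ebf1, an early B-cell factor gene, stood at -1.14, -0.02 and -0.21 (-0.45 ± 0.264). Both means came mostly from 2564. The B-cell marker Cd72 did not pass although its groups did not overlap, at 10.63, 11.05 and 10.84 against 9.64, 10.63 and 10.61 (-0.55 ± 0.205; limma, adjusted p = 0.468).

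Markers moved alongside. Of the 9 B-cell markers 8 were negative after rescue, with a median of -0.32, and their summed linear signal was 12060 to 14360 in untreated BCR-positive and 8271 to 13250 in rescued cells. It was 7992 to 12640 in treated BCR-positive cells. Fewer cells of a type and less RNA per cell cannot be told apart in such bulk samples. Summed signals of the NK-cell (93.7 to 103 and 95.6 to 126), neutrophil (114 to 118 and 117 to 121) and erythroid markers (86.1 to 91.5 and 85.7 to 89.6) were at the level of dim probe sets in both groups. Those of T-cell markers were 347 to 992 and 414 to 936, of macrophage and dendritic markers 291 to 472 and 310 to 541, and of stromal and endothelial markers, which include Vim, 2747 to 3959 and 2506 to 4023. Their part in the results was not tested.

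**Figure D5:**
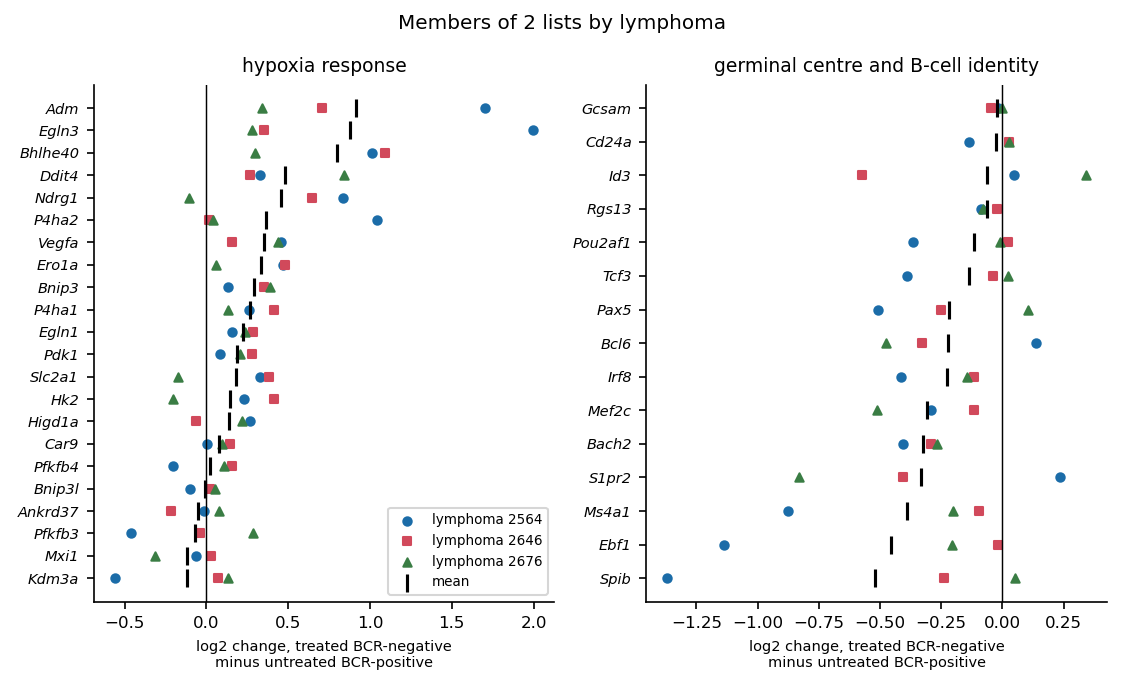
Log2 change in treated BCR-negative against untreated BCR-positive cells (x axis) for each measured gene of the hypoxia list (left, 22 genes) and the germinal centre and B-cell identity list (right, 15 genes). Coloured points are lymphomas and black ticks their mean; the right panel has all 15 means below 0, with lymphoma 2564 farthest for Spib and Ebf1.

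Direct readouts of β-catenin did not pass. Axin2 read 5.06, 5.12 and 5.13 in untreated BCR-positive and 5.25, 5.46 and 5.05 in rescued cells (0.15 ± 0.104; limma, adjusted p = 0.792), and Lef1 stood at 0.11 ± 0.0734. Ctnnb1 (-0.00 ± 0.0537, 0.01 after cyclic loess) and Gsk3b (0.11 ± 0.0527) did not pass either. Of 21 Wnt target genes 0 passed, with a median of 0.04. Among them the feedback inhibitor gene Znrf3 was higher in each lymphoma, at 7.94, 7.62 and 8.38 against 8.43, 7.93 and 8.61 (0.34 ± 0.0613; limma, adjusted p = 0.136), and CHIR99021 raised it in BCR-negative cells (0.28; adjusted p = 0.0401). The receptor gene Fzd7 was higher in each as well (0.60 ± 0.119; limma, adjusted p = 0.149). The stem cell marker Lgr5 was lower in each, at 7.39, 9.15 and 9.23 against 5.93, 8.80 and 7.39 (-1.22 ± 0.270; limma, adjusted p = 0.190). Its change with CHIR99021 was -0.93 in BCR-negative and -0.79 in BCR-positive cells.

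Among 27 BCR components 0 passed after rescue, with 6 lower and 3 higher at an unadjusted p under 0.05 (4.05% and 4.69% of all genes) and a median of -0.08. Pik3cg, a PI3K catalytic subunit gene, had risen with BCR loss (0.67; limma, adjusted p = 0.0316). It read 7.17, 9.20 and 8.46 in untreated BCR-positive and 6.25, 8.82 and 8.13 in rescued cells, below the starting level in each lymphoma (-0.54 ± 0.136; limma, adjusted p = 0.244). CHIR99021 lowered it both in BCR-negative (-1.22) and in BCR-positive cells (-1.04; limma, adjusted p = 0.00439 and 0.0404). The adaptor gene Blnk stood at 0.63 before rescue (limma, adjusted p = 0.0170) and at 0.285 ± 0.0962 after it, with -0.06, 0.51 and 0.41 by lymphoma (limma, adjusted p = 0.401).

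The remaining lists had 0 called members after rescue, with medians from -0.13 (MHC class II and antigen presentation) to 0.12 (p53 targets and lysosome). Of 21 p53 targets 6 were higher at an unadjusted p under 0.05 and 0 lower (4.69% and 4.05% of all genes). The cell cycle inhibitor gene Cdkn1a read 6.51, 8.80 and 6.14 against 8.53, 9.31 and 6.66 after rescue, with a change of 2.02 in 2564 and 0.52 and 0.53 in the others (1.02 ± 0.386; limma, adjusted p = 0.475). Its change with CHIR99021 was 1.46 in BCR-negative and 1.32 in BCR-positive cells, so the rise was not particular to rescued cells. The p53 target Zmat3 was higher in each lymphoma (0.57 ± 0.131; limma, adjusted p = 0.203). The homing receptor gene S1pr4 read 7.84, 7.83 and 6.72 in untreated BCR-positive, 8.56, 9.08 and 7.85 in untreated BCR-negative and 8.06, 8.26 and 7.23 in rescued cells, and CHIR99021 lowered it in BCR-negative cells (-0.65; limma, adjusted p = 0.0126). Its rescued change was 0.39 ± 0.0985 (limma, adjusted p = 0.258). The translesion polymerase gene Polk was also higher in each (0.15, 0.25 and 0.37; mean 0.25 ± 0.0637; limma, adjusted p = 0.246). The integrin gene Itgb1 stood at 0.20, 0.24 and 0.19 (0.21 ± 0.0592; limma, adjusted p = 0.309). The stress genes Sesn2 (0.55 ± 0.219) and Ddit4 (0.48 ± 0.189), both restrainers of mTORC1, had wide spreads, and Sesn2 ran from -0.09 in 2676 to 1.20 in 2564. Gclm, of glutathione synthesis, fell with BCR loss (-0.26; limma, adjusted p = 0.0445), rose with CHIR99021 in BCR-negative cells (0.38; adjusted p = 0.0150) and was at 0.11 ± 0.0603 after rescue. Scd1, a fatty acid desaturase gene, fell with BCR loss (-0.43; limma, adjusted p = 0.0353) and stood at -0.19 ± 0.0925 after rescue, mostly through 2676 (-0.49). The MYC antagonist gene Mnt fell with CHIR99021 in BCR-negative cells (-0.37; limma, adjusted p = 0.0295) and stood at -0.20 ± 0.0724 after rescue. The antiproliferative gene Btg1 did likewise (-0.73; limma, adjusted p = 0.0150) and was at -0.26 ± 0.118. The nuclear receptor gene Ppard differed little between lymphomas (0.38, 0.35 and 0.39; mean 0.37 ± 0.0696; limma, adjusted p = 0.145).

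The 3 called genes kept their sign in all 18 alternative settings of the processing, but not their call. The kept sign is no support, because several settings leave the estimate unchanged and alter only its error. Leaving out a lymphoma could not reverse it either, since each gene was lower in every lymphoma. The adjusted p in limma ran from 0.0153 to 0.9999 for Ighv1-72, from 0.0118 to 0.9999 for Frat1 and from 0.0174 to 0.9999 for Hivep2. Without lymphoma 2646 there were 0 calls in limma, with 1235 genes at an unadjusted p under 0.05. Leaving out the untreated BCR-positive array of 2564 or 2676, or the treated BCR-negative array of 2646 or 2676, also gave 0 (1346, 1249, 1315 and 1464 at an unadjusted p under 0.05). Without lymphoma 2564 there were 7 other genes, Ccnjl, Cd74, Greb1l, H2-Aa, Hdac9, Plek and Ttc39c. Cd74 and H2-Aa, of MHC class II, read 6.61 and 4.77 in untreated BCR-positive cells of 2564 and 6.38 and 5.39 in its rescued cells. In 2646 and 2676 the differences were -1.73 and -1.23 for Cd74 and -1.15 and -1.61 for H2-Aa. BCR loss, with 791 calls over all lymphomas, had 0 without 2646, and CHIR99021 in BCR-negative cells, with 692, also had 0. Without 2676 these counts were 22 and 175, and without 2564 the CHIR99021 count was 113, all fitted with fewer arrays.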

How the data were processed

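RNA of 12 sorted samples was measured on whole-transcript Affymetrix mouse arrays. The authors deposited RMA log2 values, 1 for each probe set and array. Per the submitters' processing notes Affymetrix Power Tools was used, with its version not given. Of 35556 probe sets, 21218 had 1 gene symbol in the platform annotation, 1881 had several and 12457 were unnamed here. The brightest probe set stood for each of 18820 genes. Array medians over probe sets were 4.71 to 4.92, and no arrays were identical. The number of arrays limits the precision.

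A linear model (limma 3.58.1 in R 4.3.3) with group and lymphoma was fitted to all 12 arrays (6 residual degrees of freedom), with Benjamini-Hochberg adjustment over all genes. The lymphoma number in the titles paired the samples, since same-numbered arrays come from the same lymphoma. Deviations from group means correlated at 0.813 to 0.907 over 18 same-lymphoma pairs. The script was tested on simulated data.

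Members and gene lists were chosen with earlier results of these data known. Named genes were the called ones with one sign in all lymphomas, then the smallest p up to 5 per direction. They also included the 10 largest BCR-loss changes per direction that CHIR99021 called with opposite sign, the 2 list members with the smallest p in lists with at least 2 calls, and a set of receptor, GSK3 and marker genes. Frat2, Klf6, Irs2, Nfkbia, Nfkb2, Egr1, Fos, Dusp6, Atf3, Lgr5, Blnk, Adm, Egln3, Vegfa, Ero1a, Spib, Ebf1 and Cd72, the genes called without one lymphoma and those among the other observations were chosen after their values were seen. Promoter windows came from RefSeq (GRCm38.p6), which held 58 of 74 named genes. Alternatives covered the block, arrays fitted, dim genes, probe set summary, scaling, prior, threshold and each array or lymphoma left out.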

Additional observations from a re-analysis of the deposited data

How the results depend on the processing

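The 3 calls after rescue depend on the model. In limma there were 0 with no lymphoma block or pairing (404 genes at an unadjusted p under 0.05), 0 with the lymphoma as a random block (1087) and 0 with only the 6 arrays compared (1649). There were 5 with a trended, robust prior, 13 at an adjusted p under 0.1 and 0 over all probe sets (2399 at an unadjusted p under 0.05), the last chosen after seeing the data. The cause was not tested, except that fewer arrays or more probe sets were tested by construction. Culture as a random block, the dim filter and subtracted array medians gave 4, and mean probe sets and cyclic loess gave 3. Leaving out a lymphoma or array gave 0 to 7.

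For BCR loss, CHIR99021 in BCR-negative cells, CHIR99021 in BCR-positive cells and BCR loss in treated cultures, counts without the block were 5, 3, 0 and 0. With the lymphoma as a random block they were 75, 81, 1 and 0, and over all probe sets 90, 279, 0 and 0. With only the 6 arrays compared the first 3 were 0, 29 and 109, and at an adjusted p under 0.1 they were 1835, 1572 and 74. CHIR99021 in BCR-positive cells gave 23 with the dim filter, 9 with cyclic loess and 33 with the trended prior. BCR loss in treated cultures gave 0 with each of these, with culture as a random block and with subtracted medians. Leave-out ranges were 0 to 1005, 0 to 840, 0 to 20 and 0 to 4. Higher and lower BCR-loss calls were 350 and 738 with subtracted medians and 448 and 216 with cyclic loess. For CHIR99021 in BCR-negative cells cyclic loess gave 232 and 415.

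Of the named genes 12 changed sign in at least 1 setting. With a lymphoma or array left out, Pinlyp ranged from -0.026 to 0.83, Cd69 from -0.48 to 0.30, Bmf from -0.083 to 0.31, Kbtbd8 from -0.0106 to 0.15, Alg6 from -0.11 to 0.13 and Ddias from -0.056 to 0.024. Gemin6 ranged from -0.10 to 0.23, Igkc from -0.24 to 0.16, Cd79a from -0.12 to 0.0755, Ctnnb1 from -0.0295 to 0.0373, Foxo1 from -0.14 to 0.0332 and Pik3ip1 from -0.0049 to 0.35. Ctnnb1 was 0.0087 with cyclic loess. Changes of sign of the gene list medians were not counted. Over all genes the rescued median was 0.0065, and -0.0079 with subtracted array medians. The sign of a list median near 0, such as 0.0111 for FOXO targets, is therefore not secure.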

Other observations

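Of 23 differences beyond 1 on the log2 scale 15 were lower and 8 higher, and 1, the lower Ighv1-72, passed over all genes. Rasgrp1, an activator of RAS downstream of antigen receptors, read 9.63, 8.04 and 7.27 in untreated BCR-positive and 8.59, 6.53 and 4.67 in rescued cells (-1.72 ± 0.302; limma, adjusted p = 0.133). Derl3, of endoplasmic reticulum-associated degradation, stood at -1.70, -0.57 and -1.23 (-1.17 ± 0.181; limma, adjusted p = 0.109), and Atp2a3, an endoplasmic reticulum calcium pump gene, at -1.45, -0.67 and -1.11 (-1.08 ± 0.175; limma, adjusted p = 0.113). Eml1, a microtubule-binding protein gene, fell with BCR loss (-1.35; limma, adjusted p = 0.0191) and stood at -1.13 ± 0.218 after rescue (adjusted p = 0.148). On the high side Tnfsf10, which encodes the death ligand TRAIL, rose with BCR loss (1.5; limma, adjusted p = 0.0441) and stood at 0.04, 2.07 and 1.72 after rescue (adjusted p = 0.276).

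Dntt, which encodes the terminal transferase of lymphoid progenitors, was high in the BCR-negative cells of lymphoma 2646 alone. There it read 8.38 without and 8.23 with CHIR99021, against 3.53 and 3.96 in BCR-positive cells. In 2564 and 2676 it was between 3.22 and 3.78 in every group.

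A few single genes, picked after their values were seen and from no list, did not pass either. Atg13 stood at -0.97, -0.56 and -0.38 (-0.64 ± 0.112; limma, adjusted p = 0.133), Wdr45 at -0.88, -0.56 and -0.35 (-0.60 ± 0.114; adjusted p = 0.148) and Tax1bp1 at -0.41, -0.24 and -0.23 (-0.30 ± 0.0588; adjusted p = 0.149). CHIR99021 lowered all of these in BCR-negative cells (limma, adjusted p = 0.00607, 0.00404 and 0.00404). In BCR-positive cells its changes were -0.53, -0.80 and -0.51, called for Tax1bp1 only (limma, adjusted p = 0.123, 0.0525 and 0.0387).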
